A study of Mus musculus with 30 samples.

Results

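The genes described are those of antigen presentation by the major histocompatibility complex (MHC) and of the interferon response. They were taken by gene symbol: every probe with a single symbol that begins with H2-, Irf and a digit, Ifi, Ifn, Isg, Oas or Gbp, or that is on a short list of further symbols, of which Tap1, Cd74, B2m and Ciita are described here. The rule found 40 of the 6267 probes, for 34 of 3663 genes named by a single symbol, and used no measured value. They fall into 9 MHC class I probes (7 genes), 7 MHC class II probes (6 genes) and 24 interferon probes (21 genes). Of the 40 probes, 29 had a value on at least 2 arrays in each of the 10 groups and were tested, as were 5010 probes in all.

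RNA came from whole mammary glands of wild type mice and of mice labelled E2F3 +/-, heterozygous for E2F3, a transcription factor of the E2F family, at lactation (involution day 0) and on involution days 1, 2, 3 and 4. Each of the 10 groups held 3 samples. The sample titles number them as replicates without stating separate mice, and each sample is taken as 1 mouse here. Every sample was measured on its own 2-colour array of spotted 70-mer oligonucleotides against RNA of a common mouse reference. No source used here gives strain, age, parity or how the allele was made. Under a single symbol, 0 probes were named E2f3, so the genotype could not be checked on these arrays. Values are log2 ratios of gland over reference after each array was centred on its median, called log2 levels here; the level of 1 probe cannot be set against that of another.

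The direction of the ratio is likely and not written in the table. It rests on the dye labels, with gland RNA in Cy5, and on deposited ratios of at least 1679 for the milk protein genes Csn3 and Lalba on all 6 lactation arrays. Ratios listed at 0 or 0.01 were taken as missing; they numbered 313 to 1376 per lactation array and 64 to 772 per involution array. Over the probes measured on all arrays, 10 of 30 arrays were nearer another group than their own, among them all 3 of wild type day 4 and all 3 of E2F3 +/- day 3. The widest gap was that of E2F3 +/- day 4 replicate 3. It correlated at 0.781 with the mean of its group's other arrays and at 0.943 with the mean of wild type day 3. E2F3 +/- day 3 replicate 1 correlated at 0.862 with its own group and at 0.96 with wild type day 3, and wild type day 2 replicate 3 at 0.857 and at 0.947 with E2F3 +/- day 4. Without E2F3 +/- day 3 replicate 1, the members higher on that day numbered 20 in place of 18. E2F3 +/- day 4 replicate 3 and wild type day 2 replicate 3 were also left out together. The members higher than lactation then numbered 5, 15, 14 and 17 on days 1 to 4 in wild type. In E2F3 +/- they numbered 4, 13, 18 and 21. The shares of all tested probes in these fits are not given.

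MHC class I molecules, a heavy chain with beta 2 microglobulin, carry peptides from inside the cell to its surface and are made by nearly all cells. Class II molecules carry peptides from engulfed material and are made mainly by dendritic cells, macrophages and B cells. Interferons act through receptors and STAT and IRF factors on genes of defence against viruses and of antigen presentation. In the mammary gland, involution after weaning removes the milk-producing epithelium by cell death and brings in phagocytes. In bulk tissue, a change in the number of cells of a type and a change in RNA per cell cannot be told apart.

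The promoters of 6 members that carry the patterns described below are shown to give the sequence context of genes that moved early, late or downward. The windows run from 250 bases before to 50 after the annotated start, 5′ to 3′, from RefSeq on build GRCm38.p6; 28 of the 34 member genes had one. Capitals mark 3 motifs on either strand: the interferon-stimulated response element (GAAANNGAAA), the gamma-activated site (TTCNNNGAA, which reads the same on both strands) and the CCAAT box (CCAAT, printed as ATTGG on the other strand).
B2m, chr2:122147437-122147736, plus strand: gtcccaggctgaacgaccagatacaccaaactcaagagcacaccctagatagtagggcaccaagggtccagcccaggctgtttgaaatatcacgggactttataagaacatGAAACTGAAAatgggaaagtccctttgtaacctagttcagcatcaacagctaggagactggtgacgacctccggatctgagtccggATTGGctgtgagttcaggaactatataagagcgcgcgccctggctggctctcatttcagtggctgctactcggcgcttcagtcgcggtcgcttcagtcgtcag
H2-Aa, chr17:34287774-34288073, minus strand: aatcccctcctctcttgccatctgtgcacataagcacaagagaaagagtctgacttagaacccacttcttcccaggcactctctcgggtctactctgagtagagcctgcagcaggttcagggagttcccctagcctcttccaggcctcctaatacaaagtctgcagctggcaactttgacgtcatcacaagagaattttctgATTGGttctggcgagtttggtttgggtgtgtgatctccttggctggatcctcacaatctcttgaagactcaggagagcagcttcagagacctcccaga
Gbp2, chr3:142620413-142620712, plus strand: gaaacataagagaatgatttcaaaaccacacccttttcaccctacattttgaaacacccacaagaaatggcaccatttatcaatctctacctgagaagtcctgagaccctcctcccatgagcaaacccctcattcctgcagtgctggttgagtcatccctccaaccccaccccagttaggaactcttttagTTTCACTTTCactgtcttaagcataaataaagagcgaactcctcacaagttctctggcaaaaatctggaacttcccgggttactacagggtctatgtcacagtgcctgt
Ifitm3, chr7:141010695-141010994, minus strand: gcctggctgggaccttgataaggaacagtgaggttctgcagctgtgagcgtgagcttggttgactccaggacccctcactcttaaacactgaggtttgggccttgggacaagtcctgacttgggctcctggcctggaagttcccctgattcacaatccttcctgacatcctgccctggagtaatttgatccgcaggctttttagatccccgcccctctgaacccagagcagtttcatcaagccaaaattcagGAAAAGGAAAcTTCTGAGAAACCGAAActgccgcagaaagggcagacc
Irf1, chr11:53769764-53770063, plus strand: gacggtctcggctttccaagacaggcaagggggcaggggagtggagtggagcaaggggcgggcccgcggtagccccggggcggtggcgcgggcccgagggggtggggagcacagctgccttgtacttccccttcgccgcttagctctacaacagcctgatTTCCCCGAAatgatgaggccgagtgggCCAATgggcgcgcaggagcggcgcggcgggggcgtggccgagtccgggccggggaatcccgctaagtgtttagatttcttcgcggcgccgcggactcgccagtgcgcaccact
Isg20, chr7:78913174-78913473, plus strand: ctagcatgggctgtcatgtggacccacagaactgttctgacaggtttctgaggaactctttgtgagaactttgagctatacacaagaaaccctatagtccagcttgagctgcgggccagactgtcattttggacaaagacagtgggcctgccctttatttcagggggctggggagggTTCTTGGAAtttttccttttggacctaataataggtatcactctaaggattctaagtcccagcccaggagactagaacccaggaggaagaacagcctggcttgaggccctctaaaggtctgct
The B2m window held a response element at position -139 from the start and a CCAAT box at -53, and the H2-Aa window a CCAAT box at -48. Gbp2 had a response element on the reverse strand at -59. Ifitm3 had 2 response elements, beginning at bases 3 and 20 after the start, and a gamma-activated site beginning at base 14 that shares bases with the second. Irf1 held a gamma-activated site at -90 and a CCAAT box at -63, and Isg20 a gamma-activated site at -73. Over the first window of each gene, the response element was found in 9 of 28 member genes (32.1%) and in 3.49% of 27025 genes. The gamma-activated site was found in 9 of 28 (32.1%) and 8.47%, and the CCAAT box in 17 of 28 (60.7%), including 6 of 6 class I genes, and 37.9%. A match describes the letters and does not show a bound site.

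Against lactation, 14 to 17 of the 29 tested MHC and interferon probes were higher on days 2, 3 and 4 in wild type. In E2F3 +/- they numbered 11 to 21. The 3 Isg20 probes were lower on all 4 days in both genotypes. On no day was the count of lower members above the share of all tested probes. In wild type glands, of the 29 tested members, 3 were higher and 5 lower on day 1 (all tested probes 17.4% and 19.8%), 16 were higher and 6 lower on day 2 (all tested probes 29.9% and 34.9%), 14 were higher and 4 lower on day 3 (all tested probes 16.0% and 23.7%) and 17 were higher and 5 lower on day 4 (all tested probes 22.7% and 33.6%). In E2F3 +/- glands 4 were higher and 6 lower on day 1 (all tested probes 22.0% and 22.9%), 11 were higher and 6 lower on day 2 (all tested probes 22.2% and 23.3%), 18 were higher and 6 lower on day 3 (all tested probes 31.1% and 35.2%) and 21 were higher and 7 lower on day 4 (all tested probes 32.8% and 38.0%). The days of 1 genotype share its lactation arrays. The median log2 difference of the members was 1.10, 1.03 and 1.29 on days 2, 3 and 4 in wild type and 1.02, 1.68 and 1.74 in E2F3 +/-, while that of all tested probes lay between -0.02 and 0.11 on these days. On day 1 the members' median was -0.34 in wild type and 0.59 in E2F3 +/-. Across both genotypes, 18 probes were higher on at least 1 day in each, 7 were lower on at least 1 day in each, and 4 passed upward in E2F3 +/- and not in wild type. Those 4 were H2-Q1, H2-Q7, H2-Aa and Tap1 probe M200003417, and none of them passed the test of genotype by time. The share of all tested probes with each of these patterns was not counted. The pattern counts therefore only list members and cannot be set against all probes. The count on day 1 rested on single arrays: it was 1 without wild type lactation replicate 2 or day 1 replicate 2, and 1 or 2 in E2F3 +/- without any 1 of 5 arrays (all 3 lactation arrays and day 1 replicates 1 and 3). The E2F3 +/- day 2 count was 6 without day 2 replicate 1.

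**Figure D1:**
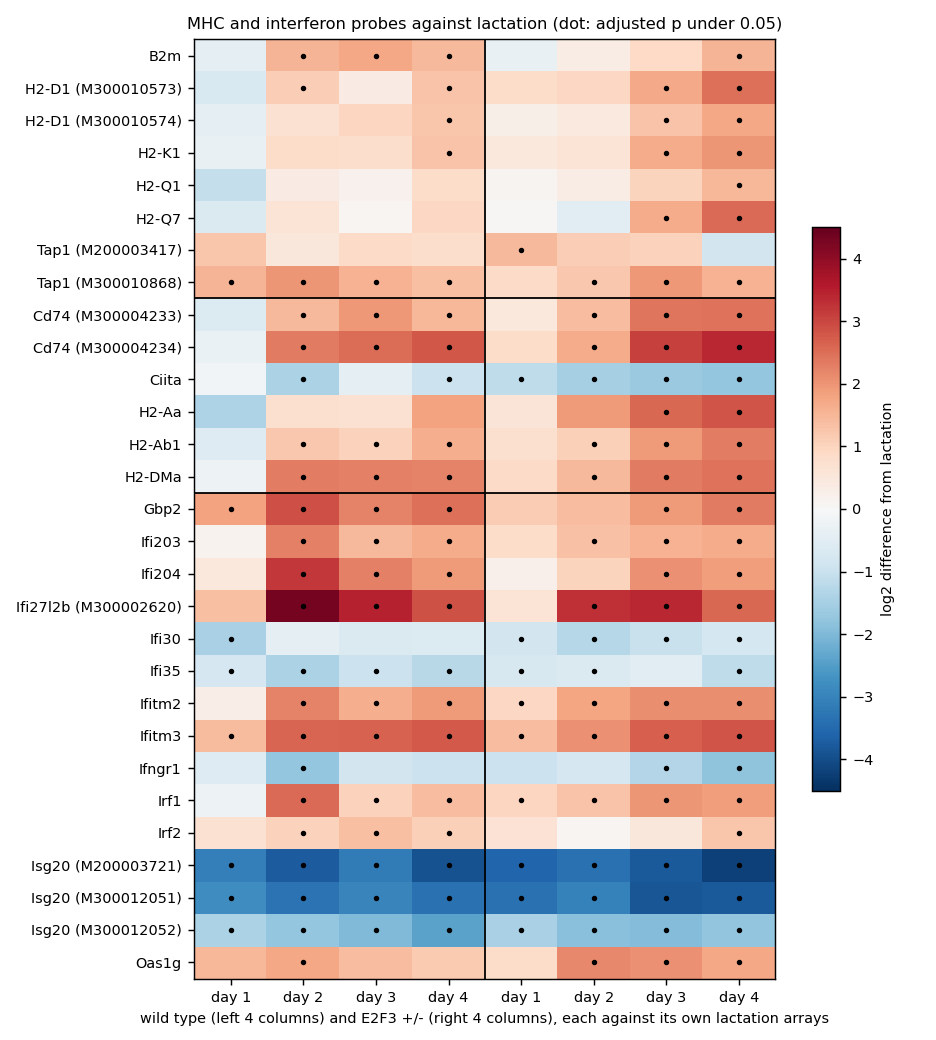
Log2 difference from lactation for the 29 tested probes (rows, by class I, class II and interferon set) on days 1 to 4 in wild type and E2F3 +/- glands (columns), with a dot where the limma adjusted p was under 0.05. Most dots of the rising rows stand on days 2 to 4, and the 3 Isg20 rows are lower in all 8 columns.

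Over the 4 days jointly, an F test passed 25 of 29 members in wild type (82.0% of all tested probes) and 29 of 29 in E2F3 +/- (76.7%). The 4 members that did not pass in wild type were H2-Q7, Tap1 probe M200003417, Ifngr1 and Oas1g, with adjusted p of 0.072, 0.208, 0.0529 and 0.082. Without 1 array, the counts lay between 24 and 27 in wild type and between 24 and 29 in E2F3 +/-.

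Both Cd74 probes, H2-Ab1 and H2-DMa were higher than lactation on days 2, 3 and 4 in both genotypes, H2-Aa was higher in E2F3 +/- on days 3 and 4, and Ciita, which encodes the class II transactivator, fell. Of 6 tested class II probes, 0 passed in either direction on day 1 in wild type (limma; 0 also at an unadjusted p under 0.05), 4 were higher on each of days 2, 3 and 4, and Ciita was lower on days 2 and 4. In E2F3 +/-, 4 were higher on day 2 and 5 on days 3 and 4, and Ciita was lower on all 4 days. Of all tested probes, 17.4%, 29.9%, 16.0% and 22.7% were higher on days 1 to 4 in wild type. In E2F3 +/- 22.0%, 22.2%, 31.1% and 32.8% of all tested probes were. The shares lower were 19.8%, 34.9%, 23.7% and 33.6% in wild type and 22.9%, 23.3%, 35.2% and 38.0% in E2F3 +/-. Cd74, the invariant chain that occupies and escorts new class II molecules, was covered by 2 probes. Log2 levels of Cd74 at probe M300004234 in wild type were 2.23, 1.96 and 2.37 at lactation and 2.12, 2.21 and 1.36 on day 1. Day 2 gave 3.37, 4.69 and 5.54, day 3 4.31, 4.89 and 4.94 and day 4 5.55, 4.59 and 4.81. In E2F3 +/- they were 1.42, 1.69 and 1.66 at lactation and 2.57, 2.37 and 2.34 on day 1. Day 2 gave 3.60, 2.95 and 3.19, day 3 3.76, 4.64 and 5.60 and day 4 5.35, 5.25 and 4.32. All arrays of days 2, 3 and 4 lay above the 3 lactation arrays of their genotype. Cd74 rose by 2.80 ± 0.44 (6.95-fold, adjusted p = 2.29e-05) on day 4 in wild type and by 3.38 ± 0.44 (10.4-fold, adjusted p = 1.68e-06) in E2F3 +/-. At M300004233, the other probe, wild type Cd74 stood at 3.50, 3.92 and 3.97 at lactation and 3.87, 2.68 and 2.99 on day 1. Day 2 gave 5.39, 5.16 and 5.23, day 3 5.54, 6.17 and 5.54 and day 4 4.51, 5.53 and 5.84. The E2F3 +/- arrays of that probe read 3.35, 1.93 and 2.82 at lactation and 2.59, 3.67 and 3.32 on day 1. Day 2 gave 3.78, 4.38 and 4.07, day 3 4.92, 4.80 and 5.66 and day 4 5.12, 5.13 and 5.18. All arrays of days 2, 3 and 4 were above lactation at this probe too. Day 1 overlapped with lactation in both genotypes here, whereas at M300004234 the E2F3 +/- day 1 arrays lay above it. This probe rose by 1.95 ± 0.37 (3.87-fold, adjusted p = 0.000258) on day 3 in wild type and by 2.42 ± 0.37 (5.37-fold, adjusted p = 1.8e-05) in E2F3 +/-. None of the Cd74 calls against lactation depended on a single array.

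H2-Aa and H2-Ab1 encode the alpha and beta chains of the I-A molecule. H2-Ab1 levels in wild type were 1.88, 1.82 and 1.84 at lactation and 1.42, 1.37 and 1.05 on day 1. Day 2 gave 2.04, 4.09 and 3.04, day 3 2.59, 3.13 and 2.92 and day 4 3.79, 3.58 and 3.06. In E2F3 +/- glands H2-Ab1 stood at 0.39, 0.62 and 0.96 at lactation and 1.43, 1.26 and 1.41 on day 1. Day 2 gave 2.05, 1.62 and 1.52, day 3 1.81, 2.59 and 3.33 and day 4 3.13, 2.87 and 2.83. The wild type lactation arrays lay above the E2F3 +/- lactation arrays, the day 1 arrays of the genotypes overlapped, and day 4 was above lactation in both. H2-Ab1 rose on day 4 by 1.63 ± 0.36 (3.09-fold, adjusted p = 0.000891) in wild type and 2.29 ± 0.36 (4.88-fold, adjusted p = 1.98e-05) in E2F3 +/-. For H2-Aa the wild type levels were 6.23, 5.84 and 4.50 at lactation and 6.32, 3.37 and 2.78 on day 1. Day 2 gave 4.99, 6.71 and 7.05, day 3 5.67, 6.58 and 6.42 and day 4 6.54, 9.24 and 6.25. The mice of a group spread widely on days 1 and 4. E2F3 +/- levels of H2-Aa were 3.79, 3.51 and 3.86 at lactation and 4.84, 4.65 and 3.43 on day 1. Day 2 gave 6.58, 4.34 and 5.94, day 3 5.46, 6.46 and 7.0 and day 4 7.02, 6.82 and 5.80. Day 3 and day 4 lay above lactation on every array. H2-Aa rose in E2F3 +/- by 2.59 ± 0.81 (6.02-fold, adjusted p = 0.00871) on day 3 and 2.83 ± 0.81 (7.11-fold, adjusted p = 0.00399) on day 4. In wild type the day 4 difference was 1.82 ± 0.81 (3.53-fold, adjusted p = 0.0574).

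H2-DMa, a chain of the H2-DM molecule that exchanges peptides on class II, had levels in wild type of 0.16 and 0.92 (2 arrays with a value) at lactation and 0.63 and -0.02 (2 arrays with a value) on day 1. Day 2 gave 2.03, 3.17 and 3.36, day 3 2.02, 3.41 and 2.99 and day 4 2.64, 3.03 and 2.62. The corresponding E2F3 +/- levels were 0.09 and 0.59 (2 arrays with a value) at lactation and 1.40, 1.69 and 0.52 on day 1. Day 2 gave 1.87, 1.82 and 1.72, day 3 2.11, 2.75 and 3.14 and day 4 3.67, 3.22 and 1.51. Every measured array from day 2 onward lay above the lactation arrays in both genotypes, the lowest being E2F3 +/- day 4 replicate 3. H2-DMa rose by 2.31 ± 0.53 (4.97-fold, adjusted p = 0.00101) on day 2 in wild type and by 2.45 ± 0.53 (5.48-fold, adjusted p = 0.000588) on day 4 in E2F3 +/-. H2-Eb1, the beta chain of I-E, was not tested because 2 of the 3 wild type lactation arrays had no value. H2-Eb1 levels in wild type were 1.90 (1 array with a value) at lactation and 5.57, 5.04 and 4.90 on day 1. Day 2 gave 2.92, 3.40 and 7.53, day 3 7.72, 8.19 and 7.54 and day 4 6.81, 3.08 and 7.66. E2F3 +/- glands had 4.08, 3.93 and 4.50 at lactation and 6.42, 6.10 and 6.12 on day 1. Day 2 gave 7.44, 6.83 and 6.46, day 3 6.50, 7.94 and 7.87 and day 4 8.15, 8.06 and 1.63. Single H2-Eb1 arrays stood far below the others of their group, among them wild type day 4 replicate 2 and E2F3 +/- day 4 replicate 3.

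Ciita moved the other way. Ciita levels in wild type were 0.23, 0.14 and -0.16 at lactation and 0.36, -0.56 and 0.00 on day 1. Day 2 gave -1.45, -1.26 and -1.37, day 3 -0.14, -0.60 and -0.37 and day 4 -0.54 and -1.27 (2 arrays with a value). All 3 arrays of day 2 lay below lactation and day 3, level with the lower of the day 4 arrays. In E2F3 +/- Ciita stood at 0.79, 1.15 and 0.70 at lactation and -0.52, -0.70 and 0.47 on day 1. Day 2 gave -0.45 and -0.81 (2 arrays with a value), day 3 -0.19, -0.97 and -1.27 and day 4 -1.06, -1.28 and -0.27. All later arrays lay below the lactation arrays. Ciita fell by 1.43 ± 0.33 (2.69-fold, adjusted p = 0.001) on day 2 in wild type and fell by 1.75 ± 0.33 (3.36-fold, adjusted p = 0.000158) on day 4 in E2F3 +/-. With 0 and 0.01 kept at 0.01, Ciita did not pass on wild type days 2 and 4 or on E2F3 +/- days 1, 3 and 4 (adjusted p from 0.0618 to 0.506). Its wild type day 4 call was also lost with values as deposited, not centred (adjusted p = 0.079). A 70-mer does not tell the transcript forms of Ciita apart. Of the 32 class II calls against lactation, 26 were kept without any single array. The other 6 include H2-Ab1 on wild type day 2 (adjusted p = 0.0761 without day 2 replicate 2) and day 3 (up to 0.099 without a lactation array or day 3 replicate 2 or 3). The call of H2-Ab1 was also lost on E2F3 +/- day 2 (up to 0.0835 without lactation replicate 1 or 2 or day 2 replicate 1). H2-DMa was lost on E2F3 +/- day 2 (up to 0.161 without lactation replicate 1 or 2 or any day 2 array). Ciita was lost on wild type day 4 (up to 0.272 without lactation replicate 1 or 2 or day 4 replicate 3) and Ciita on E2F3 +/- day 1 (0.0556 without day 1 replicate 2).

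**Figure D2:**
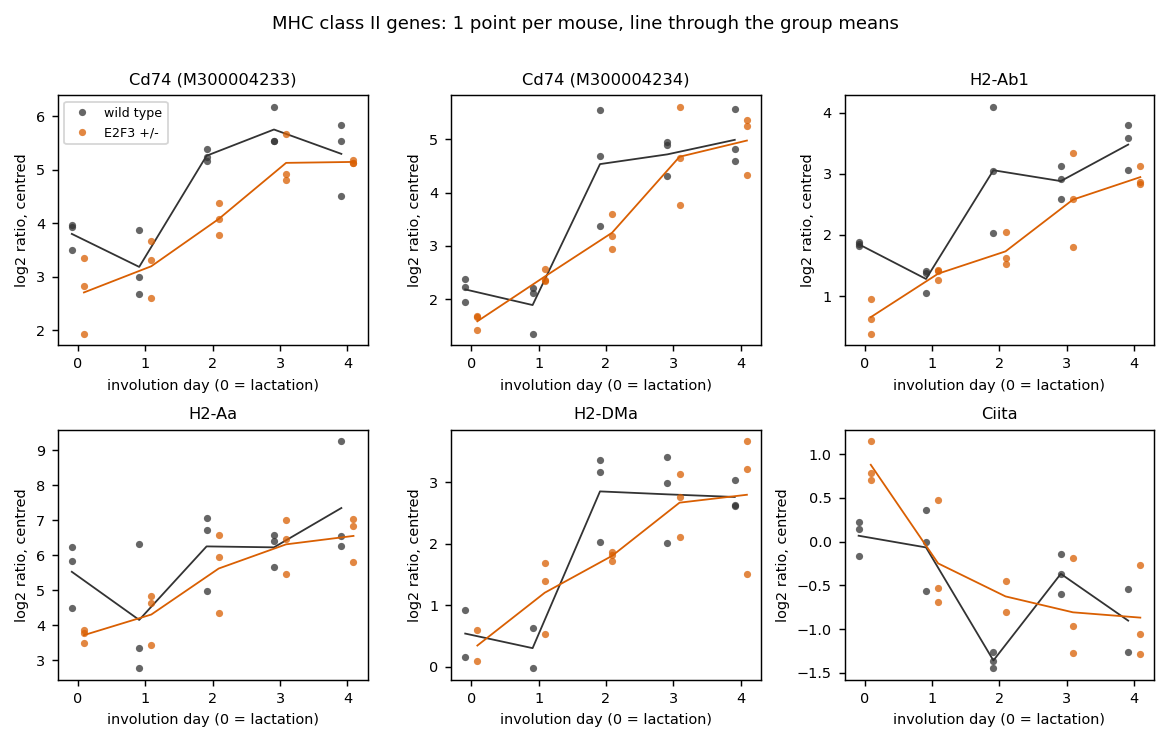
Log2 levels (gland over reference, centred) of the 6 tested class II probes against involution day, 1 point per mouse and a line through the group means, for wild type (dark) and E2F3 +/- (orange). In E2F3 +/- the means of Cd74, H2-Ab1, H2-Aa and H2-DMa climb from day 1 to day 4. In wild type most of their rise lies between days 1 and 2. Ciita means lie below lactation on all later days, lowest on day 2 in wild type.

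Of the 8 tested MHC class I probes, more were higher than lactation on day 4 than on any earlier day in both genotypes, and 0 passed downward on any day in either (limma; 1 at an unadjusted p under 0.05, on wild type day 1). The number higher on days 1, 2, 3 and 4 was 1, 3, 2 and 5 in wild type, where 17.4%, 29.9%, 16.0% and 22.7% of all tested probes were. It was 1, 1, 5 and 7 in E2F3 +/-, against 22.0%, 22.2%, 31.1% and 32.8%. The counts of days 1 and 2 are therefore near or below the share of all probes. Each of the 5 wild type calls on day 4 was lost without at least 1 array, as listed below. From day 1 to day 2 in wild type 5 of the 8 rose (all tested probes 22.2%). From day 3 to day 4 0 passed in either genotype by limma (all tested probes 0% in each). At an unadjusted p under 0.05, 1 was higher in wild type and 1 lower in E2F3 +/- over that step. The median log2 difference of the 8 on day 4 was 1.27 in wild type and 1.65 in E2F3 +/-, and that of the 6 class II probes was 1.72 and 2.45, a difference between sets that was not tested. B2m, the light chain shared by class I molecules, had wild type levels of 1.30, 1.12 and 1.33 at lactation and 0.81, 1.01 and 0.74 on day 1. Day 2 gave 1.55, 3.47 and 3.29, day 3 2.34, 3.20 and 3.40 and day 4 2.35, 2.61 and 3.20. In E2F3 +/- B2m stood at 1.13, 1.33 and 2.20 at lactation and 1.34, 1.18 and 1.12 on day 1. Day 2 gave 2.54, 1.68 and 1.48, day 3 1.71, 2.42 and 3.21 and day 4 3.62, 3.58 and 2.09. Wild type day 2 replicate 1 was close to lactation while the other day 2 arrays were far above it. B2m rose by 1.73 ± 0.46 (3.31-fold, adjusted p = 0.00532) on day 3 in wild type and by 1.54 ± 0.46 (2.92-fold, adjusted p = 0.00576) on day 4 in E2F3 +/-.

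H2-K1 and H2-D1 encode the classical heavy chains, and H2-Q1 and H2-Q7 belong to the Qa group of heavy chains. These sequences are closely related, and their 70-mers may not separate them. H2-K1 levels in wild type were 1.97, 2.04 and 2.07 at lactation and 1.79, 1.75 and 1.52 on day 1. Day 2 gave 1.55, 3.93 and 3.12, day 3 2.34, 3.15 and 2.96 and day 4 3.55, 3.00 and 3.37. For H2-K1 in E2F3 +/- they were 1.11, 1.23 and 1.50 at lactation and 1.84, 1.61 and 1.82 on day 1. Day 2 gave 2.16, 1.66 and 1.89, day 3 2.01, 2.86 and 3.93 and day 4 3.73, 3.26 and 2.77. The E2F3 +/- lactation arrays lay below the wild type ones, and day 4 was above lactation in both genotypes. H2-K1 rose by 1.97 ± 0.43 (3.93-fold, adjusted p = 0.000454) on day 4 in E2F3 +/- and by 1.28 ± 0.43 (2.42-fold, adjusted p = 0.0151) in wild type. For H2-D1 at probe M300010573, wild type levels were 1.59, 1.43 and 1.09 at lactation and 0.76, 0.74 and 0.54 on day 1. Day 2 gave 1.35, 3.54 and 2.54, day 3 1.21, 2.06 and 1.94 and day 4 2.74, 3.08 and 2.15. E2F3 +/- levels of H2-D1 were -0.18, 0.11 and 0.67 at lactation and 1.05, 0.61 and 1.46 on day 1. Day 2 gave 1.50, 0.96 and 0.93, day 3 1.01, 2.16 and 2.55 and day 4 3.10, 2.84 and 2.09. H2-D1 rose by 2.47 ± 0.43 (5.55-fold, adjusted p = 5.81e-05) on day 4 in E2F3 +/-, and the second probe, M300010574, by 1.74 ± 0.47 (3.33-fold, adjusted p = 0.00258). H2-D1 at M300010574 stood in wild type at 2.39, 2.69 and 2.52 at lactation and 2.24, 1.99 and 2.14 on day 1. Day 2 gave 1.91, 4.50 and 3.30, day 3 2.97, 3.71 and 3.78 and day 4 3.72, 3.87 and 3.79. E2F3 +/- arrays of M300010574 read 1.65, 1.54 and 2.17 at lactation and 1.94, 1.88 and 2.30 on day 1. Day 2 gave 2.41, 2.09 and 2.19, day 3 1.88, 3.23 and 4.15 and day 4 4.02, 3.47 and 3.07. Wild type day 2 replicate 1 was below lactation at this probe, and day 4 was above lactation in both genotypes. H2-Q1 in wild type stood at 2.19, 2.48 and 2.33 at lactation and 1.33, 1.10 and 1.39 on day 1. Day 2 gave 1.39, 4.08 and 2.61, day 3 1.85, 2.96 and 2.82 and day 4 3.16, 3.23 and 3.11. E2F3 +/- H2-Q1 arrays read 1.05, 1.55 and 1.82 at lactation and 1.62, 1.44 and 1.76 on day 1. Day 2 gave 2.36, 1.45 and 1.60, day 3 1.59, 2.33 and 3.49 and day 4 3.69, 2.99 and 2.26. Here too wild type day 2 replicate 1 was below lactation, and the day 4 arrays of both genotypes lay above it. H2-Q1 rose on E2F3 +/- day 4 by 1.50 ± 0.49 (2.83-fold, adjusted p = 0.00973). H2-Q7 levels in wild type were 1.06, -0.26 and 1.00 at lactation and -0.96, 0.69 and 0.10 on day 1. Day 2 gave 0.28, 1.23 and 2.16, day 3 0.93, 0.76 and 0.33 and day 4 2.09, 1.00 and 1.51. For H2-Q7 in E2F3 +/- they were -0.36, -0.76 and 0.55 at lactation and 0.92, -0.18 and -1.16 on day 1. Day 2 gave -0.47, -0.32 and -1.22, day 3 0.69, 1.85 and 1.94 and day 4 2.71, 2.60 and 1.80. All 3 H2-Q7 arrays of E2F3 +/- day 4 lay above lactation, and H2-Q7 rose there by 2.56 ± 0.54 (5.91-fold, adjusted p = 0.000353).

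Tap1 is a subunit of the transporter that brings peptides to class I molecules. At probe M300010868 alone, it was the class I member that was higher on day 1 in wild type. Levels of Tap1 at probe M300010868 in wild type were 0.13, -0.16 and 0.19 at lactation and 1.37, 2.09 and 1.34 on day 1. Day 2 gave 0.77, 2.55 and 2.84, day 3 0.94, 2.07 and 1.86 and day 4 0.91 and 1.89 (2 arrays with a value). E2F3 +/- levels of Tap1 were -0.71, -0.08 and 0.48 at lactation and 1.33, 0.35 and 0.64 on day 1. Day 2 gave 1.39, 1.24 and 0.73, day 3 1.37, 1.77 and 2.40 and day 4 1.66, 2.12 and 0.59. In wild type every day 1 array was above lactation, and Tap1 rose by 2.00 ± 0.48 (3.99-fold, adjusted p = 0.00121) on day 2. In E2F3 +/- it rose by 1.95 ± 0.48 (3.87-fold, adjusted p = 0.00177) on day 3. At probe M200003417, wild type Tap1 stood at -0.24, -0.51 and 0.06 at lactation and 0.70, 1.15 and 1.20 on day 1. Day 2 gave -0.86 and 1.42 (2 arrays with a value), day 3 0.18, 0.77 and 0.98 and day 4 0.56 and 0.54 (2 arrays with a value). E2F3 +/- arrays of M200003417 read -1.31 and -0.39 (2 arrays with a value) at lactation and 1.19, 0.15 and 0.51 on day 1. Day 2 gave 0.44, 0.07 and 0.27, day 3 0.47, -1.02 and 1.13 and day 4 -2.20 and -1.14 (2 arrays with a value). The probes of Tap1 disagreed late in the course: on E2F3 +/- day 4 M200003417 had a difference of -0.82 ± 0.62 (1.76-fold, adjusted p = 0.239), where M300010868 rose by 1.56 ± 0.48 (2.95-fold, adjusted p = 0.0067). With the mean of both probes, Tap1 did not pass on wild type days 1, 3 and 4 or on E2F3 +/- days 1 to 4 (adjusted p from 0.0618 to 0.237). With 0 and 0.01 kept at 0.01, no Tap1 call against lactation was kept (adjusted p from 0.182 to 0.481). H2-M3, a heavy chain that presents formylated peptides, was not tested, with 4 arrays without a value. H2-M3 in wild type stood at -1.28 (1 array with a value) at lactation and -0.38 and -1.33 (2 arrays with a value) on day 1. Day 2 gave -0.55, 0.70 and 0.66, day 3 -0.49, -0.23 and 0.15 and day 4 -0.25, -0.17 and -0.02. E2F3 +/- H2-M3 arrays read -1.87 and -1.02 (2 arrays with a value) at lactation and -1.25, -1.02 and -1.03 on day 1. Day 2 gave -0.39, -0.61 and -1.08, day 3 -1.38, -0.60 and 0.43 and day 4 -0.09, -0.00 and -0.44. The E2F3 +/- day 4 arrays lay above the measured lactation arrays, as did wild type days 2, 3 and 4 above 1 lactation array.

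Of the 25 class I calls against lactation, 12 were kept without any single array. The 13 others reached adjusted p between 0.05 and 0.284 without 1 array. In wild type these were Tap1 probe M300010868 on day 1 (without lactation or day 1 replicate 2), day 3 (without day 3 replicate 2) and day 4 (without any 1 lactation array or day 4 replicate 3). They were also H2-D1 probe M300010573 on day 2 (without lactation or day 2 replicate 2 or 3) and day 4 (without lactation replicate 3 or day 4 replicate 2). The others in wild type were H2-D1 probe M300010574 on day 4 (without lactation replicate 1 or 3 or day 4 replicate 2 or 3), H2-K1 on day 4 (0.0525 without day 4 replicate 1) and B2m on day 4 (0.0546 without day 4 replicate 3). In E2F3 +/- they were Tap1 probe M200003417 on day 1 (without lactation or day 1 replicate 1 or 3) and Tap1 probe M300010868 on day 2 (without lactation or day 2 replicate 1 or 2). The remaining ones were H2-D1 probe M300010574 on day 3 (without lactation replicate 1 or 2 or day 3 replicate 2 or 3), H2-Q7 on day 3 (0.0521 without lactation replicate 2) and H2-Q1 on day 4 (0.0653 without day 4 replicate 1).

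**Figure D3:**
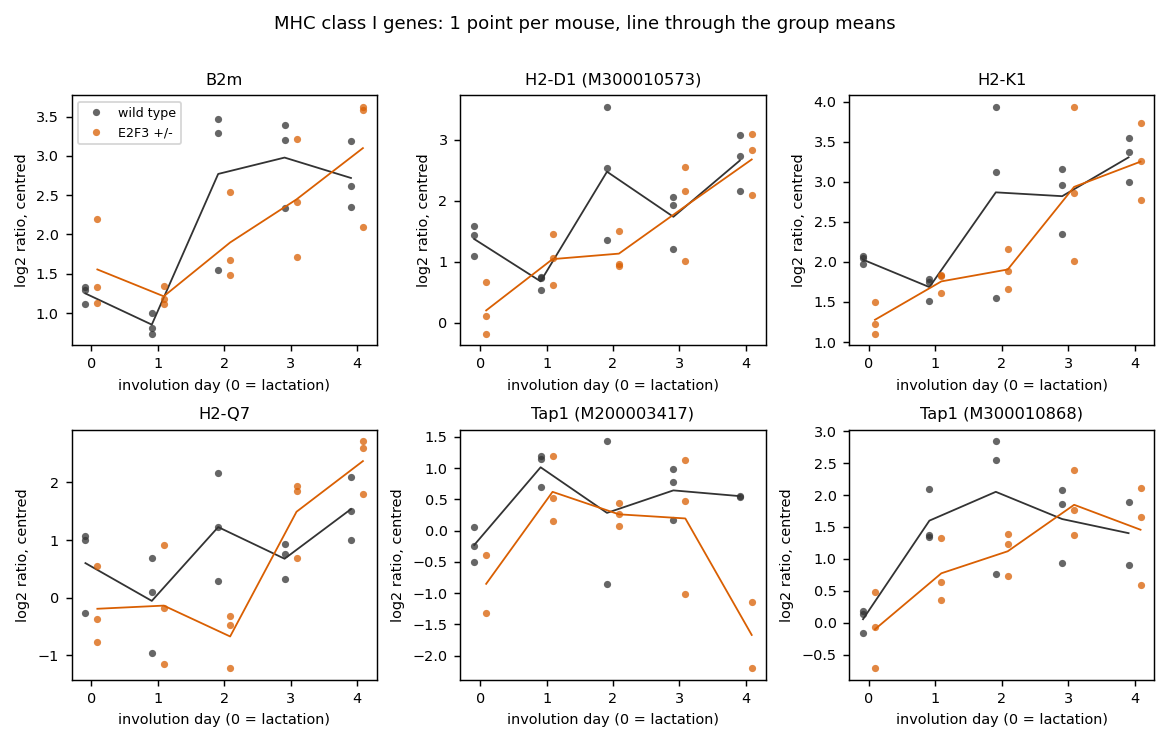
Log2 levels of 6 class I probes against involution day, 1 point per mouse and a line through the group means. Wild type day 2 holds 1 low array for B2m, H2-D1 and H2-K1, and the Tap1 probes part on day 4 in E2F3 +/-.

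Among the interferon members, Ifitm3, Ifi27l2b, Irf1 and Ifi204 were among those that rose and Isg20, Ifi35 and Ifi30 among those that fell. Of 15 tested probes, 2, 9, 8 and 8 were higher on days 1 to 4 in wild type. The shares of all tested probes were 17.4%, 29.9%, 16.0% and 22.7%. In E2F3 +/- 3, 6, 8 and 9 were higher, against 22.0%, 22.2%, 31.1% and 32.8%. The day 1 counts were below the shares. In wild type 5, 5, 4 and 4 of the 15 were lower on days 1 to 4, against 19.8%, 34.9%, 23.7% and 33.6%. In E2F3 +/- 5, 5, 5 and 6 were lower, against 22.9%, 23.3%, 35.2% and 38.0%. From day 2 on in wild type and on days 3 and 4 in E2F3 +/-, the lower counts are near these shares. Among ligands and receptors, Ifna4, an interferon alpha gene, had a value on 10 arrays and was not tested. Ifngr1, the ligand-binding chain of the interferon gamma receptor, had wild type levels of 1.86, 2.03 and 1.34 at lactation and 1.42, 0.62 and 1.39 on day 1. Day 2 gave 0.67, 0.91 and -1.61, day 3 1.19, 0.79 and 0.77 and day 4 0.63, 0.92 and 0.75. Its levels in E2F3 +/- were 1.67, 1.85 and 1.50 at lactation and 0.48, 0.89 and 0.74 on day 1. Day 2 gave 1.20, 0.68 and 0.90, day 3 0.88, -0.60 and 0.77 and day 4 -0.99, -0.78 and 1.33. Most later arrays were below lactation, with 1 very low array on wild type day 2, 1 on E2F3 +/- day 3 and 2 on E2F3 +/- day 4. Ifngr1 fell by 1.82 ± 0.53 (3.53-fold, adjusted p = 0.00458) on day 4 in E2F3 +/-. Its calls on wild type day 2 and E2F3 +/- day 3 rested on wild type day 2 replicate 3 (without it, adjusted p = 0.0925) and on any E2F3 +/- lactation array or day 3 replicate 2 (up to 0.193).

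Irf1, a transcription factor that activates interferon and class I genes, peaked on day 2 in wild type. Irf1 levels in wild type were 0.16, -0.61 and -0.44 at lactation and -0.13, -0.85 and -0.60 on day 1. Day 2 gave 1.57, 2.82 and 2.32, day 3 0.46, 1.13 and 0.61 and day 4 1.05, 1.30 and 0.93. In E2F3 +/- they were -0.76, -1.22 and -0.35 at lactation and 0.27, -0.00 and 0.25 on day 1. Day 2 gave 0.90, 0.17 and 0.43, day 3 0.42, 1.59 and 1.60 and day 4 1.10, 1.63 and 0.59. The 3 wild type day 2 arrays lay above all wild type arrays of other days, with the lowest at 1.57, and the E2F3 +/- day 2 arrays all lay below them. Irf1 rose by 2.53 ± 0.35 (5.78-fold, adjusted p = 3.3e-06) on day 2 in wild type and by 1.98 ± 0.35 (3.94-fold, adjusted p = 8.29e-05) on day 3 in E2F3 +/-. From day 2 to day 3 it fell in wild type by 1.50 ± 0.35 (2.83-fold, adjusted p = 0.0133), with adjusted p of 0.0528 without day 3 replicate 1 and 0.0577 without day 3 replicate 3. The Irf1 call on wild type day 3 was lost without lactation replicate 2 or 3 or day 3 replicate 2 (up to 0.109), and that on E2F3 +/- day 1 without lactation replicate 1 or 2 or day 1 replicate 1 or 3 (up to 0.137). Irf2, which competes with Irf1 for the same sites, rose by 1.37 ± 0.34 (2.58-fold, adjusted p = 0.00322) on day 3 in wild type and 1.25 ± 0.34 (2.38-fold, adjusted p = 0.00295) on day 4 in E2F3 +/-. Its wild type calls of days 2 and 4 were lost without replicate 2 of that day (adjusted p = 0.0512 and 0.0661).

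Ifitm3 and Ifitm2 encode membrane proteins that restrict virus entry, and as close paralogs they may share signal. Ifitm3 levels in wild type were -1.10, -1.18 and -1.74 at lactation and 0.16, 0.39 and -0.26 on day 1. Day 2 gave 1.16, 1.11 and 1.58, day 3 0.73, 1.80 and 1.41 and day 4 1.54, 1.53 and 1.16. For Ifitm3 in E2F3 +/- they were -1.73, -1.43 and -1.37 at lactation and 0.10, -0.31 and -0.16 on day 1. Day 2 gave 0.75, 0.75 and 0.17, day 3 0.10, 1.30 and 2.11 and day 4 1.79, 1.91 and 0.29. Every involution array of Ifitm3 lay above every lactation array of its genotype from day 1 onward. Ifitm3 rose by 1.44 ± 0.40 (2.71-fold, adjusted p = 0.00733) on day 1 and 2.75 ± 0.40 (6.74-fold, adjusted p = 1.09e-05) on day 4 in wild type, and by 1.39 ± 0.40 (2.62-fold, adjusted p = 0.00907) and 2.84 ± 0.40 (7.16-fold, adjusted p = 5.34e-06) in E2F3 +/-. Levels of Ifitm2 in wild type were -0.98, -1.40 and -1.31 at lactation and -0.67, -0.71 and -1.47 on day 1. Day 2 gave 0.67, 1.58 and 0.72, day 3 -0.05, 0.71 and 0.58 and day 4 0.85, 1.15 and 0.03. E2F3 +/- Ifitm2 arrays read -1.48, -1.87 and -1.63 at lactation and -0.45, -0.52 and -1.18 on day 1. Day 2 gave 0.02, 0.55 and -0.21, day 3 0.08, 0.57 and 0.63 and day 4 0.27, 0.89 and 0.18. Wild type day 1 overlapped with lactation, and all other involution arrays of Ifitm2 lay above the lactation arrays of their genotype. Ifitm2 rose by 2.22 ± 0.32 (4.67-fold, adjusted p = 6.65e-06) on day 2 in wild type and by 2.10 ± 0.32 (4.3-fold, adjusted p = 1.37e-05) on day 4 in E2F3 +/-. Its call on E2F3 +/- day 1 was lost without lactation replicate 2 or 3 or day 1 replicate 1 or 2 (up to 0.0881). Gbp2, a guanylate-binding protein strongly induced by interferon gamma, had wild type levels of 0.47 and 0.97 (2 arrays with a value) at lactation and 2.89, 3.00 and 1.70 on day 1. Day 2 gave 2.89, 4.38 and 3.60, day 3 2.10, 4.26 and 2.53 and day 4 3.03, 3.62 and 2.90. E2F3 +/- levels of Gbp2 were 0.03, 1.27 and 0.58 at lactation and 2.61, 1.57 and 1.17 on day 1. Day 2 gave 2.62, 2.06 and 1.33, day 3 1.37, 2.76 and 3.55 and day 4 3.08, 3.22 and 2.60. Wild type day 1 arrays of Gbp2 were all above the measured lactation arrays, and E2F3 +/- day 1 overlapped with lactation. Gbp2 rose by 2.90 ± 0.63 (7.46-fold, adjusted p = 0.000539) on day 2 in wild type and by 2.34 ± 0.56 (5.05-fold, adjusted p = 0.00121) on day 4 in E2F3 +/-. The Gbp2 call on wild type day 1, 1.81 ± 0.63 (3.51-fold, adjusted p = 0.0277), was lost without lactation replicate 2 or 3 or day 1 replicate 1 or 2 (up to 0.15), and that on day 3 without lactation or day 3 replicate 2 (up to 0.0669).

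Ifi27l2b, an interferon alpha-inducible gene of the Ifi27 family, had the largest rise among the members tested. At probe M300002620 its wild type levels were 0.13, 0.39 and 0.18 at lactation and 1.71, 2.19 and 0.89 on day 1. Day 2 gave 6.0, 4.58 and 3.06, day 3 3.15, 3.92 and 4.02 and day 4 2.24, 3.87 and 3.16. In E2F3 +/- they were -0.17, 0.47 and 0.17 at lactation and 1.19, 1.34 and -0.24 on day 1. Day 2 gave 4.49, 4.40 and 1.48, day 3 3.09, 3.97 and 3.57 and day 4 3.12, 3.12 and 1.96. The arrays of days 2, 3 and 4 lay above lactation throughout, and replicate 3 was the lowest of day 2 in both genotypes. Ifi27l2b rose by 4.31 ± 0.67 (19.9-fold, adjusted p = 1.44e-05) on day 2 in wild type and by 3.39 ± 0.67 (10.5-fold, adjusted p = 0.000265) on day 3 in E2F3 +/-. The second Ifi27l2b probe had values on 4 arrays, all of day 2. Ifi204 and Ifi203 belong to the p200 family of DNA-binding proteins and are also close in sequence. Levels of Ifi204 in wild type were -2.40, -2.84 and -2.56 at lactation and -2.06, -2.49 and -1.77 on day 1. Day 2 gave -0.33, 1.13 and 0.97, day 3 -0.80, -0.04 and -0.17 and day 4 -0.42, -1.73 and 0.09. For Ifi204 in E2F3 +/- they were -2.43, -1.66 and -1.75 at lactation and -1.43, -1.90 and -1.82 on day 1. Day 2 gave -0.47, -0.89 and -1.44, day 3 -1.08, 0.43 and 0.94 and day 4 0.34, 0.79 and -1.29. Day 2 arrays of Ifi204 lay above lactation in both genotypes, and every wild type day 2 array lay above every E2F3 +/- one. Ifi204 rose by 3.19 ± 0.52 (9.13-fold, adjusted p = 2.48e-05) on day 2 in wild type and by 2.04 ± 0.52 (4.12-fold, adjusted p = 0.00227) on day 3 in E2F3 +/-. The day 2 difference in E2F3 +/- was 1.02 ± 0.52 (2.02-fold, adjusted p = 0.108). Ifi203 in wild type stood at -0.48, -1.18 and -0.80 at lactation and -1.21, 0.01 and -0.79 on day 1. Day 2 gave 1.21, 1.84 and 1.27, day 3 0.21, 0.83 and 0.85 and day 4 0.56, 1.47 and 0.55. E2F3 +/- Ifi203 arrays read -0.50, -0.72 and -1.55 at lactation and 0.41, -0.65 and -0.06 on day 1. Day 2 gave 0.80, 0.42 and -0.07, day 3 -0.35, 1.26 and 1.08 and day 4 0.92, 1.17 and 0.16. Day 1 overlapped with lactation in both genotypes, and days 2, 3 and 4 lay above it. Ifi203 rose by 2.26 ± 0.42 (4.8-fold, adjusted p = 9.81e-05) on day 2 in wild type and 1.67 ± 0.42 (3.18-fold, adjusted p = 0.00152) on day 4 in E2F3 +/-. Its call on E2F3 +/- day 2 was lost without lactation replicate 3 or day 2 replicate 1 (up to 0.0917). Oas1g, of the family that makes 2-5A to activate RNase L, had levels from -0.63 to 1.95 in wild type and from -1.59 to 2.30 in E2F3 +/-. It was higher on wild type day 2 by 1.74 ± 0.61 (3.34-fold, adjusted p = 0.0166) and on E2F3 +/- day 3 by 2.07 ± 0.61 (4.2-fold, adjusted p = 0.00625). Each of the 4 Oas1g calls was lost without at least 1 array, with adjusted p up to 0.0678: wild type lactation replicate 3 or day 2 replicate 2, E2F3 +/- day 2 replicate 1, day 3 replicate 3, and for day 4 lactation or day 4 replicate 1 or 2.

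Isg20, a 3′ to 5′ exonuclease that degrades single-stranded RNA, fell at once and stayed low, on all 3 of its probes. Log2 levels at probe M200003721 in wild type were 3.81, 3.74 and 3.35 at lactation and 0.54, 0.81 and 0.28 on day 1. Day 2 gave 0.04 and -0.27 (2 arrays with a value), day 3 0.25, 0.40 and 0.78 and day 4 -0.13, -1.23 and 0.52. In E2F3 +/- they were 3.09, 3.74 and 3.59 at lactation and -0.33, 0.33 and -0.26 on day 1. Day 2 gave 0.66, -0.32 and 0.01, day 3 -0.98, 0.43 and -0.31 and day 4 -0.59 and -0.89 (2 arrays with a value). All measured later arrays lay at least 2 log2 units below the lowest lactation array. Isg20 fell by 3.09 ± 0.37 (8.53-fold, adjusted p = 1.5e-06) on day 1 and fell by 3.92 ± 0.37 (15.1-fold, adjusted p = 5.77e-08) on day 4 in wild type. In E2F3 +/- it fell by 3.56 ± 0.37 (11.8-fold, adjusted p = 2.27e-07) on day 1 and fell by 4.22 ± 0.42 (18.6-fold, adjusted p = 9.78e-08) on day 4. Isg20 at probe M300012051 stood in wild type at 2.87, 2.96 and 3.07 at lactation and 0.13, 0.17 and 0.19 on day 1. Day 2 gave 0.07, -0.24 and -0.87, day 3 -0.58, 0.41 and 0.20 and day 4 -0.53, -0.95 and 0.29. E2F3 +/- arrays of M300012051 read 2.44, 3.33 and 3.16 at lactation and -0.27, -0.19 and -0.65 on day 1. Day 2 gave 0.28, -0.60 and 0.16, day 3 -1.24, -0.55 and -0.78 and day 4 -0.67, -1.22 and -0.50. At probe M300012052 the wild type arrays read 1.87, 2.35 and 1.81 at lactation and 0.86 and 0.34 (2 arrays with a value) on day 1. Day 2 gave 0.30 and 0.27 (2 arrays with a value), day 3 -0.20, 0.13 and 0.18 and day 4 -0.55, -0.37 and -0.23. In E2F3 +/- this probe read 1.92, 1.44 and 2.00 at lactation and -0.12, 0.65 and 0.47 on day 1. Day 2 gave 0.09, -0.82 and 0.40, day 3 -0.09, 0.29 and -0.70 and day 4 0.27, -0.45 and 0.26. No later array of either probe overlapped with the lactation arrays of its genotype. Probe M300012051 fell by 3.37 ± 0.33 (10.3-fold, adjusted p = 4.55e-08) on day 4 in wild type and fell by 3.78 ± 0.33 (13.7-fold, adjusted p = 8.03e-09) in E2F3 +/-. Probe M300012052 fell by 2.40 ± 0.31 (5.26-fold, adjusted p = 3.34e-06) in wild type and fell by 1.76 ± 0.31 (3.39-fold, adjusted p = 7.67e-05) in E2F3 +/- on that day. The 24 Isg20 calls were all kept without any single array. With 0 and 0.01 kept at 0.01, M200003721 did not pass on wild type days 1 and 3 or E2F3 +/- days 1 and 2 (adjusted p from 0.0536 to 0.0921). M300012052 then did not pass on wild type days 1, 3 and 4 or on any E2F3 +/- day (adjusted p from 0.0558 to 0.476).

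Ifi35, an interferon-induced leucine zipper protein, had levels in wild type of 2.06, 1.68 and 2.08 at lactation and 1.10, 1.28 and 1.15 on day 1. Day 2 gave 0.65, 0.62 and 0.31, day 3 0.56, 1.09 and 1.23 and day 4 0.53, 0.59 and 0.95. E2F3 +/- levels of Ifi35 were 0.88, 1.46 and 1.75 at lactation and 0.46, 1.04 and 0.46 on day 1. Day 2 gave 1.05, 0.73 and 0.33, day 3 0.74, 0.86 and 1.00 and day 4 0.38, 0.20 and 0.09. In wild type all later arrays were below lactation, and Ifi35 fell by 1.42 ± 0.24 (2.67-fold, adjusted p = 3.94e-05) on day 2. In E2F3 +/- it fell by 1.14 ± 0.24 (2.21-fold, adjusted p = 0.00035) on day 4. The Ifi35 calls on wild type day 1 (without lactation replicate 1 or 3 or day 1 replicate 1) and on E2F3 +/- days 1 and 2 (without lactation replicate 2 or 3, day 1 replicate 1 or 3, or day 2 replicate 2 or 3) were lost, with adjusted p up to 0.155. Ifi30 encodes the lysosomal thiol reductase that opens disulphide bonds of antigens for class II loading. Ifi30 levels in wild type were 2.39, 2.02 and 1.91 at lactation and 0.43, 0.84 and 0.67 on day 1. Day 2 gave 1.18, 1.90 and 1.87, day 3 1.01, 1.92 and 1.45 and day 4 1.34, 1.82 and 1.31. For Ifi30 in E2F3 +/- they were 2.48, 2.31 and 1.88 at lactation and 1.55, 1.53 and 1.12 on day 1. Day 2 gave 0.95, 0.89 and 0.94, day 3 0.86, 1.23 and 1.62 and day 4 1.66, 0.81 and 1.85. Wild type day 1 held the lowest arrays, and the later days lay above day 1 and at or below the lowest lactation array, with 1 day 3 array just above it. Ifi30 fell by 1.46 ± 0.28 (2.75-fold, adjusted p = 0.000324) on day 1 in wild type and fell by 1.30 ± 0.28 (2.46-fold, adjusted p = 0.000986) on day 2 in E2F3 +/-. Its E2F3 +/- calls of days 1 and 4 were lost without lactation replicate 1 or 2, day 1 replicate 3 or day 4 replicate 2 (up to 0.159). From day 1 to day 2 in wild type Ifi30 rose by 1.00 ± 0.28 (2.00-fold, adjusted p = 0.00618). Of the 92 interferon calls against lactation, 73 were kept without any single array.

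**Figure D4:**
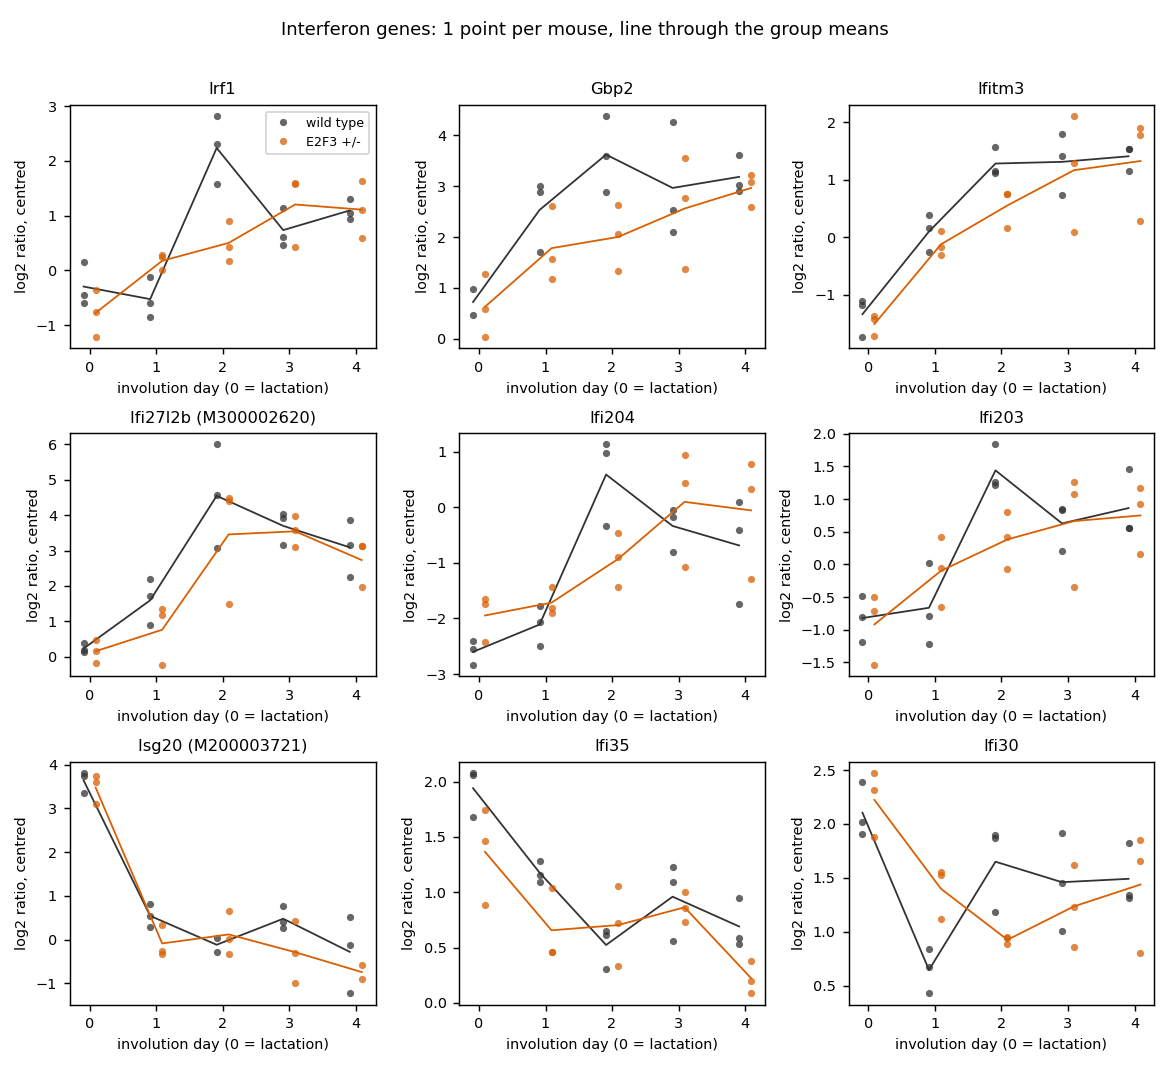
Log2 levels of 9 interferon probes against involution day, 1 point per mouse and a line through the group means, for wild type (dark) and E2F3 +/- (orange). Irf1, Ifi204 and Ifi203 peak on day 2 in wild type, Isg20 drops by day 1, and Ifi30 dips on day 1 in wild type.

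Over all 40 member probes, 46 of the 240 values on lactation arrays were listed at 0 or 0.01 and 76 of the 960 on involution arrays. Irf8 and Irf5, factors active in macrophages and dendritic cells, had no value on any of the 3 E2F3 +/- lactation arrays. Their levels on day 4 were 1.91, 2.44 and 2.23 for Irf8 in wild type and 2.85, 2.94 and 1.12 in E2F3 +/-. Irf5 on day 4 stood at 1.60, 2.36 and 2.11 in wild type and 2.66, 2.96 and 1.15 in E2F3 +/-. Wild type day 2 gave 1.52, 3.80 and 2.65 for Irf8 and 1.46, 3.83 and 3.03 for Irf5. Its replicate 2 was the highest single array of both genes, and its replicate 1 lay below all their wild type day 4 arrays. Irf4, a factor of lymphocytes and dendritic cells, stood in wild type at -1.93 and -2.03 (2 arrays with a value) at lactation and -3.79 (1 array with a value) on day 1. Day 2 gave -1.34, 0.34 and 0.43, day 3 -2.29, -2.25 and -3.06 and day 4 -0.84, -0.67 and -0.02. E2F3 +/- Irf4 arrays read -3.65 (1 array with a value) at lactation and -2.33, -1.83 and -2.24 on day 1. Day 2 gave -2.72, -1.78 and -1.60, day 3 -2.17, -0.42 and -0.13 and day 4 -0.58, 0.17 and -0.62. Without the filter on missing values, the E2F3 +/- minus wild type difference of Irf4 on day 2 was -1.84 ± 0.50 (adjusted p = 0.0231). Its difference from the only measured E2F3 +/- lactation array was 2.75 ± 0.70 (adjusted p = 0.00312) on day 3 and 3.31 ± 0.70 (adjusted p = 0.000637) on day 4, and where 1 array stands for a group the fit takes its spread from the other groups. Ifih1, a sensor of viral RNA, had no value on 3 lactation arrays, and its lowest involution level was 0.88; without the filter it was higher in E2F3 +/- than in wild type on day 2 by 0.97 ± 0.31 (adjusted p = 0.0444). Ifnar1 and Ifngr2, chains of the 2 interferon receptors, had no value on 2 of 3 wild type lactation arrays. With the filter on missing values removed, Ifnar1 was higher on E2F3 +/- day 4 by 1.58 ± 0.34 (adjusted p = 0.000551) and Ifih1 by 1.53 ± 0.35 (adjusted p = 0.000907). Ifngr2 had 1 measured wild type lactation array, and no difference from it is given. Oas1a had values on 3 arrays.

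Between successive days, the step from day 1 to day 2 in wild type held nearly all of the calls: 17 of 29 members were higher (all tested probes 22.2%) and 2 lower (28.7%). Irf1 rose by 2.76 ± 0.35 (6.78-fold, adjusted p = 4.91e-06), Cd74 probe M300004234 by 2.64 ± 0.44 (6.22-fold, adjusted p = 7.3e-05) and H2-DMa by 2.55 ± 0.53 (5.86-fold, adjusted p = 0.000792). Of these 19 calls, 13 were kept without any single array; the other 6 were lost without 1 array, with adjusted p up to 0.379. They were H2-D1 probe M300010574 (any array but day 2 replicate 1), H2-K1 (day 1 replicate 3, day 2 replicate 2 or 3), H2-Q1 (replicate 2 of either day), H2-Aa (replicate 2 or 3 of either day), Ifi35 (day 1 replicate 2 or 3, day 2 replicate 3) and Ifitm3 (replicate 3 of either day). From day 2 to day 3 in wild type, 2 members passed (all tested probes 17.6%): Irf1, lower, and Ciita, higher by 0.99 ± 0.33 (1.99-fold, adjusted p = 0.0434); without any 1 of the 6 arrays Ciita did not pass (adjusted p up to 0.133). From day 3 to day 4, 0 passed (0% of all tested probes; 1 member at an unadjusted p under 0.05). In E2F3 +/- the steps called 0 members (0.140%, 0% and 0% of all tested probes), with 4, 6 and 3 at an unadjusted p under 0.05 by limma. With array weights they called 4, 17 and 3. The first step called 1 without day 2 replicate 3, the second 5 without day 3 replicate 1 and the third 1 without day 4 replicate 3. The share of all tested probes is not given for the weighted fit or for fits without 1 array.

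Between genotypes, Irf1, H2-Q7, H2-Ab1 and 1 probe each of Cd74 and H2-D1 were lower in E2F3 +/- on day 2, and 24 of 29 members did not pass. The 5 lower members stand against 0 higher (all tested probes 5.45% and 7.72%), with 14 lower and 0 higher at an unadjusted p under 0.05. The E2F3 +/- minus wild type difference of Irf1 was -1.73 ± 0.35 (3.33-fold, adjusted p = 0.00423), with no overlap between the 3 arrays of each genotype; this call was kept under all alternatives tried. That of H2-Q7 was -1.90 ± 0.54 (3.73-fold, adjusted p = 0.0248) and that of H2-Ab1 -1.32 ± 0.36 (2.51-fold, adjusted p = 0.0201). Cd74 probe M300004233 differed by -1.18 ± 0.37 (2.27-fold, adjusted p = 0.0385) and H2-D1 probe M300010573 by -1.34 ± 0.43 (2.54-fold, adjusted p = 0.0421). Wild type and E2F3 +/- arrays overlapped for H2-Ab1 and H2-D1, where wild type replicate 1 was the low one, and did not overlap for H2-Q7 and Cd74. The call of H2-Q7 was lost without wild type replicate 3 (adjusted p = 0.126) or E2F3 +/- replicate 3 (0.129), and that of H2-Ab1 without wild type replicate 2 or 3 or E2F3 +/- replicate 2 or 3 (up to 0.094). The call of Cd74 was lost without any 1 of the 6 arrays (up to 0.116), and that of H2-D1 without wild type replicate 2 or 3 or any E2F3 +/- array (up to 0.179). The count of 5 became 13 without wild type replicate 1 and 1 without replicate 3 of either genotype. It became 2 without replicate 2 of either genotype and 3 without E2F3 +/- replicate 1. The share of all tested probes in these fits is not given.

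At the other times 0 members passed between genotypes by limma: at lactation (all tested probes 0.399%), with 1 higher and 5 lower at an unadjusted p under 0.05; on day 1 (0.679%), with 1 and 2; on day 3 (0%), with 0 and 1; on day 4 (1.02%), with 0 and 1; and over all times (0.758%), with 0 and 7. The shares above belong to the main fit, and none is given for the weighted fit or for fits without 1 array. The member counts of those fits therefore cannot be set against all probes. Array weights called 4, 1, 7, 9 and 3 members in these comparisons, and on day 4 2 were called without E2F3 +/- day 4 replicate 3. Over all times 1 or 2 were called without wild type day 2 replicate 1 or 3, wild type day 4 replicate 1 or 3, E2F3 +/- day 3 replicate 3 or day 4 replicate 3. At lactation, H2-Ab1 differed by -1.19 ± 0.36 (2.29-fold, adjusted p = 0.2) and Cd74 probe M300004233 by -1.09 ± 0.37 (2.14-fold, adjusted p = 0.28), with no overlap of arrays and neither past the threshold. The median log2 difference at lactation was -0.75 over the 8 class I probes, -0.85 over the 6 class II probes and -0.10 over the 15 interferon probes, against -0.06 over all tested probes. On days 3 and 4 the medians of the genotype difference were 0.02 and -0.02 for class I and -0.22 and -0.08 for class II.

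**Figure D5:**
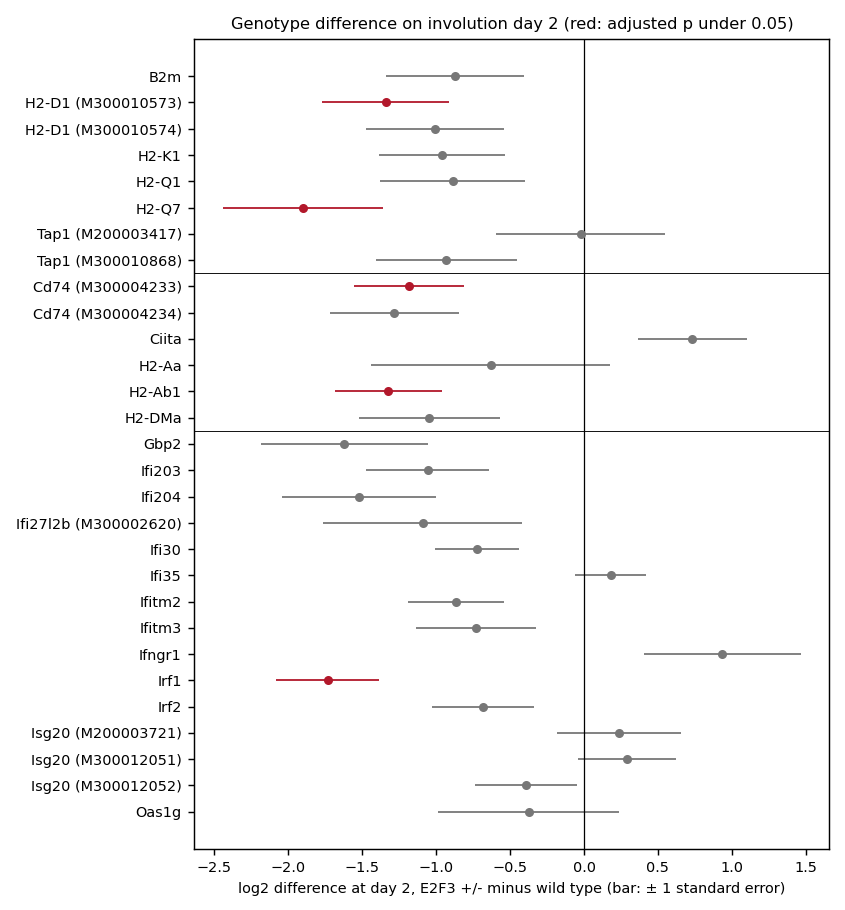
Log2 difference on involution day 2, E2F3 +/- minus wild type, for the 29 tested probes, with bars of 1 standard error and red points where the limma adjusted p was under 0.05. Irf1, H2-Q7, H2-Ab1 and 1 probe each of Cd74 and H2-D1 are red, and most points lie left of 0.

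In the test of genotype by time over all days, 1 of 29 members passed (6.77% of all tested probes): Irf1, with an adjusted p of 0.024. Its E2F3 +/- minus wild type difference was -0.48 ± 0.35 (1.4-fold, adjusted p = 0.926) at lactation, 0.70 ± 0.35 (1.62-fold, adjusted p = 0.497) on day 1, -1.73 ± 0.35 (3.33-fold, adjusted p = 0.00423) on day 2 and 0.47 ± 0.35 (1.38-fold, adjusted p = 0.544) on day 3. The adjusted p of the joint test was 0.051 without wild type day 2 replicate 3, 0.062 without E2F3 +/- day 2 replicate 2, 0.0679 without E2F3 +/- day 2 replicate 3 and 0.0604 with values of 0 kept at 0.01. The count was 5 without wild type day 2 replicate 1 or E2F3 +/- day 4 replicate 3 and 4 without E2F3 +/- day 3 replicate 1. In the tests of single days by limma, 0 members passed on days 1, 2, 3 and 4 (0.339%, 0%, 0.240% and 0.299% of all tested probes). At an unadjusted p under 0.05 there were 5, 4, 3 and 1. With array weights 2, 0, 8 and 8 passed. The shares belong to the main fit, and none is given for the weighted fit or for fits without 1 array.

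Genes of the same pathways outside the rule come from lists chosen with earlier results of these data known. Of all tested probes, 17.4%, 29.9%, 16.0% and 22.7% were higher than lactation on days 1 to 4 in wild type. In E2F3 +/- 22.0%, 22.2%, 31.1% and 32.8% were. The shares lower were 19.8%, 34.9%, 23.7% and 33.6% in wild type and 22.9%, 23.3%, 35.2% and 38.0% in E2F3 +/-. Of 10 tested antigen processing probes, 2, 9, 6 and 6 were higher on days 1 to 4 in wild type and 3, 8, 10 and 9 in E2F3 +/-, and 0 were lower. They include Psmb9, a subunit of the immunoproteasome, higher by 1.91 on wild type day 2 and 2.01 on E2F3 +/- day 4, and Lgmn, a lysosomal protease, higher by 3.45 and 3.58 on these days. Cathepsin genes differed: Ctss was -0.53 from lactation on wild type day 1, not past the threshold, and higher by 2.89 on day 2, whereas Ctsl was higher by 4.73 on day 1 and 2.12 on day 2. Of 20 tested probes of other interferon response genes, 7, 12, 8 and 11 were higher and 3, 3, 1 and 2 lower in wild type. In E2F3 +/- 9, 9, 12 and 12 were higher and 3, 3, 2 and 4 lower. The lower counts were below the shares of all tested probes on every day. Samhd1, a dNTP hydrolase, rose by 2.32 on wild type day 2 at probe M200012660 and 1.40 at M300005731. Parp14, a mono-ADP-ribosyltransferase, rose by 1.84 on wild type day 2, and Socs3, an inhibitor of cytokine signalling, by 1.52 on day 1 and 0.80 on day 2. Cmpk2, a mitochondrial nucleotide kinase, fell by 3.16 on wild type day 2 at 1 probe and fell by 2.51 at the other. All these are log2 differences from lactation.

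Markers of other cell types changed on the same days. All 14 tested macrophage probes were higher than lactation on days 2, 3 and 4 in wild type, and 2 on day 1. In E2F3 +/- 4, 12, 14 and 14 were higher on days 1 to 4. Of all tested probes, 17.4%, 29.9%, 16.0% and 22.7% were higher on days 1 to 4 in wild type. In E2F3 +/- the shares were 22.0%, 22.2%, 31.1% and 32.8%. The day 1 macrophage counts were near these shares. The mean log2 level of the 12 macrophage probes measured on all arrays ran from 0.28 to 1.12 at wild type lactation, 0.76 to 1.36 on day 1, 3.24 to 4.88 on day 2, 3.07 to 3.77 on day 3 and 3.43 to 4.02 on day 4. In E2F3 +/- it ran from -0.17 to 0.15 at lactation, 0.94 to 1.58 on day 1, 1.66 to 2.23 on day 2, 2.54 to 3.50 on day 3 and 2.60 to 3.81 on day 4. On day 2, 9 of the 14 macrophage probes were lower in E2F3 +/- than in wild type (all tested probes 5.45%). Among them were Lyz2 with a difference of -3.42 and Fcer1g with -2.19. Cd14 alone was higher, by 2.00 (all tested probes 7.72%). Ctss stands in both the macrophage and the antigen processing list. Of 9 tested luminal epithelium probes, 5, 2, 5 and 3 were higher than lactation on wild type days 1 to 4. On these days 0, 3, 1 and 3 were lower (all tested probes 19.8%, 34.9%, 23.7% and 33.6%). In E2F3 +/- 4 were higher on each day and 0, 1, 2 and 3 lower (22.9%, 23.3%, 35.2% and 38.0%). All 9 were lower on wild type day 2 than on day 1 (all tested probes 28.7%). Between genotypes on day 2, 2 were higher and 0 lower in E2F3 +/- than in wild type (7.72% and 5.45%). The mean log2 level of the 8 luminal probes measured on all arrays ran from 5.22 to 5.64 at wild type lactation. It ran from 6.85 to 7.08 on wild type day 1 and 3.68 to 5.56 on wild type day 2. In E2F3 +/- this level ran from 5.50 to 6.03 at lactation and 5.94 to 6.29 on day 2. Fibroblast probes were higher than lactation on wild type day 2 in 5 of 6 and adipocyte probes in 3 of 3 (all tested probes 29.9%). On day 2, 3 of the 6 fibroblast probes were lower in E2F3 +/- than in wild type (all tested probes 5.45%). Skeletal muscle probes were higher than lactation on wild type day 2 in 6 of 6 (29.9%) and on E2F3 +/- day 2 in 0 of 6 (22.2%). Mean levels of the 2 muscle probes measured on all arrays ran from 2.27 to 5.63 on wild type day 2 and 2.64 to 4.13 on E2F3 +/- day 2. Of the B and plasma cell list 1 probe was tested, Jchain, higher on day 4 by 2.00 in wild type and 3.53 in E2F3 +/-; the dendritic cell and the T and NK cell lists had 0 tested probes. The part of these cell types in the results above was not tested.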

How the data were processed

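RNA of 30 mouse mammary gland samples, 3 per genotype and time, was hybridised to 2-colour arrays. Gland RNA was in Cy5 and reference RNA in Cy3, per the labels. The authors deposited 1 ratio per probe and array; no source used here names the scanner, background correction or normalization. Ratios of 0 or 0.01 (7.64% of the table) were set to missing, the others turned to log2 and centred on each array's median over the 3968 probes measured on all arrays. The deposited ratios hold no spot intensity, so signal over background is unknown, and the number of arrays limits the precision. Nothing in the labels beyond separate samples describes the mice, so p-values measure the spread between these samples. A limma 3.58.1 model (R 4.3.3) with 10 group means was fitted to the 5010 probes with at least 2 values in every group, with Benjamini-Hochberg adjustment over all of them and a threshold of 0.05. It was tested on simulated data.

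Probes were named from the platform annotation: 3997 had 1 symbol, 115 several and 2155 none. Tables and figures used Python 3.11.15, pandas 2.3.3, numpy 2.4.6 and matplotlib 3.10.9. Members and lists were chosen with earlier results of these data known. Full values were given for all MHC members, for the 12 interferon probes with the smallest F test p over days and for members past the threshold between genotypes. Alternatives were other scalings, treatments of low values, filters, array weights, a replicate block, trend and robust moderation, fits to the groups compared, gene means, and leaving out arrays.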

Additional observations from a re-analysis of the deposited data

Results flagged for a closer look

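Irf1 passed the test of the genotype difference over time, with an adjusted p of 0.024 by limma. It was the only one of the 29 tested members to do so, while 6.77% of all tested probes passed. Its level was lower in E2F3 +/- on day 2 on 3 of 3 arrays. This was a test of the difference itself, and it was lost without any of 3 single arrays of day 2. It was also lost with 0 and 0.01 kept at 0.01 (adjusted p = 0.0604).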

How the results depend on the processing

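Of the 149 calls of members against lactation, 143 were kept with deposited values, 146 with quantile normalization, 119 with 0 and 0.01 kept at 0.01, 147 with array weights, 143 with only the groups compared and 111 without any single array. Of 51 calls of genes with several probes, 43 were kept with gene means. Tap1 probe M300010868 on wild type day 4 turned to -1.41 (adjusted p = 0.373) with 0 and 0.01 kept at 0.01. The replicate block kept 147 calls and changed no count by over 1.5 times, with 16 members higher on wild type day 2 and 12 on E2F3 +/- day 2. Of correlations between same-numbered arrays of different groups, 35 of 135 were over 0.1, against 66 of 270 between arrays of different number. On average, 10 of 30 arrays were closest to arrays of their own number. Whether the replicate numbers mark a pairing cannot be settled from these correlations. Leaving values uncentred moved the median of all tested probes by up to 0.25 on the log2 scale (E2F3 +/- day 4). Counts of members that moved by over 1.5 times are given next, and the cause was not tested. The shares of all tested probes under these alternatives are not given, so the counts cannot be set against all probes. With 0 and 0.01 kept at 0.01, the counts were 6 for wild type day 1 higher, 3 for wild type day 1 lower, 2 for wild type day 3 lower, 3 for wild type day 4 lower, 3 for E2F3 +/- day 1 lower, 3 for E2F3 +/- day 3 lower, 2 for genotype at lactation, 2 for genotype on day 2, 1 for wild type day 2 to 3 and 0 for genotype by time jointly. With array weights, the counts were 7 for wild type day 1 higher, 12 for E2F3 +/- day 1 higher, 17 for E2F3 +/- day 2 higher, 4 for genotype at lactation, 1 for genotype on day 1, 1 for genotype on day 2, 7 for genotype on day 3, 9 for genotype on day 4, 3 for genotype over all times, 2 for genotype by time on day 1, 8 for genotype by time on day 3, 8 for genotype by time on day 4, 1 for wild type day 2 to 3, 1 for wild type day 3 to 4, 4 for E2F3 +/- day 1 to 2, 17 for E2F3 +/- day 2 to 3, 3 for E2F3 +/- day 3 to 4 and 15 for genotype by time jointly. Without wild type day 2 replicate 3 and E2F3 +/- day 4 replicate 3, the counts were 5 for wild type day 1 higher, 2 for genotype on day 2, 2 for genotype on day 4, 4 for genotype over all times, 1 for genotype by time on day 4, 1 for wild type day 2 to 3, 1 for E2F3 +/- day 1 to 2, 2 for E2F3 +/- day 2 to 3, 3 for E2F3 +/- day 3 to 4 and 2 for genotype by time jointly. With no filter on missing values, the counts were 5 for wild type day 1 higher, 7 for E2F3 +/- day 1 higher and 2 for genotype by time jointly. With only probes measured on all arrays (fewer probes tested), the counts were 1 for wild type day 1 higher, 3 for wild type day 1 lower, 3 for wild type day 2 lower, 2 for wild type day 3 lower, 2 for wild type day 4 lower, 3 for E2F3 +/- day 1 lower, 3 for E2F3 +/- day 2 lower, 3 for E2F3 +/- day 3 lower, 4 for E2F3 +/- day 4 lower and 1 for wild type day 2 to 3. With only the groups compared, the counts were 7 for wild type day 1 higher, 8 for wild type day 1 lower, 10 for E2F3 +/- day 1 higher, 17 for E2F3 +/- day 2 higher, 1 for genotype at lactation, 2 for genotype on day 2, 1 for genotype by time on day 1 and 1 for wild type day 2 to 3. With quantile normalization, the counts were 5 for wild type day 1 higher, 7 for E2F3 +/- day 1 higher, 1 for wild type day 2 to 3 and 1 for E2F3 +/- day 2 to 3. With deposited values, not centred, the counts were 5 for wild type day 1 higher and 9 for genotype on day 2. Without 1 array, counts ranged as follows: 1 to 4 for wild type day 1 higher, 1 to 3 for E2F3 +/- day 1 higher, 6 to 11 for E2F3 +/- day 2 higher, 1 to 13 for genotype on day 2, 0 to 2 for genotype on day 4, 0 to 2 for genotype over all times, 0 to 2 for wild type day 2 to 3, 0 to 1 for E2F3 +/- day 1 to 2, 0 to 5 for E2F3 +/- day 2 to 3, 0 to 1 for E2F3 +/- day 3 to 4 and 0 to 5 for genotype by time jointly.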
